A study of Phalaenopsis amabilis with 15 samples.

Results

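The cytosolic ribosome of a plant cell is built from ribosomal RNA and many small proteins, and these proteins are described here at the transcript level in orchid leaves. A locus counted as a member when its Swiss-Prot match in the deposited table named a 60S, a 40S or a 60S acidic ribosomal protein, in any case. Of 21144 loci, 192 met this rule, 125 of them with a 60S name and 67 with a 40S name, and 183 also carried the KEGG term for the ribosome. For 183 members the text gave 1 of 80 different ribosomal protein names, 48 of the large and 32 of the small subunit, called families below. Different names were not merged. Of these families 17 had 1 locus, 36 had 2 loci and 27 had 3 or more. The other members were 4 loci whose text says mitochondrial and 5 that match an L18a-like protein, and these were counted apart where roles are compared.

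The small (40S) subunit holds the messenger RNA and reads its codons, and the large (60S) subunit joins the amino acids and lets the new chain out through a tunnel. The acidic proteins P0, P1, P2 and, in plants, P3 form a stalk on the large subunit that recruits translation factors. In plants, ribosomal proteins are encoded by small gene families, their transcripts are abundant in growing tissue, and S6 is phosphorylated through the TOR pathway, which couples growth to nutrients and light.

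The plants were moth orchids labelled Phalaenopsis amabilis, 120 in number, and RNA came from their topmost young leaves. Each of 5 groups had 3 libraries, and each library pooled 3 plants. Control leaves were taken at day 0, before treatment, under 12 h of light, with 28 °C in the day, 25 °C at night and 70% humidity. SD_20d and LD_20d leaves came from plants after 20 days of 25 °C in the day and 18 °C at night, with 8 h of light in the short photoperiod (SD) and 16 h in the long photoperiod (LD). SD_40d and LD_40d leaves came from plants after 40 days of the same treatments. Each treated group therefore differs from Control in temperature, day length and age together, and these cannot be told apart in a comparison with Control. SD and LD leaves of the same day differ in day length alone, as far as the labels say, and no source used here gives the time of day at harvest. The loci, their positions and their protein names are those of the related species P. equestris, so reads of one species were counted on loci of another.

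Library totals ran from 11246777 to 14637388 counts, and the members took between 1.13 and 1.84% of them. Of the 192 members, 15 had no count in any library, and 166 passed the filter on low counts and were tested. The 26 members left out held at most 66 counts each over all 15 libraries, while the lowest tested member held 114. On the first principal component of all genes (44.6% of the variance), SD_40d replicate 1 lay at -16.9, away from SD_40d replicates 2 and 3 at -77.6 and -89.3. The numbers of members called in comparisons with SD_40d are therefore also given without it. Family sums, locus shares and the related gene lists use all 15 libraries. Other groups were spread on this component too, LD_20d at 9.5, 64.6 and 34.6 and LD_40d at -59.8, -50.3 and -18.6. The leaf label was checked against 34 genes of light harvesting, the photosystems and Rubisco, all detected. Their summed level lay between 66478 and 82154 CPM (TMM-scaled counts, brought to one library size) in Control, 24969 and 30786 CPM in SD_20d, 15363 and 25195 CPM in LD_20d, 33409 and 38065 CPM in SD_40d, and 23102 and 29546 CPM in LD_40d.

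Ribosomal protein transcripts were among the more abundant in these leaves. Per kilobase of gene length, which allows levels of different genes to be compared, the median tested member stood at 86.6 CPM per kb over all libraries, against 14.1 CPM per kb for all 16700 tested genes. Members were short, with a median length of 717.5 bases, against 1337 bases for all loci. The highest member was L23a locus LOC110030916 (scaffold NW_018164444.1, 41654497 to 41667975, minus strand), a protein at the rim of the exit tunnel, with 482 CPM per kb. L35a locus LOC110025659 followed with 439, L13a locus LOC110031983 with 360, L27 locus LOC110031202 with 352, L6 locus LOC110038393 with 313 and S15a locus LOC110039352 with 306 CPM per kb. In each group the SD of the L13a locus between libraries exceeds its step to L27 in this order. The L23a locus had 356.0, 346.2 and 326.1 CPM in Control, 241.1, 301.8 and 248.9 CPM in SD_20d, 264.7, 258.3 and 286.1 CPM in LD_20d, 249.9, 344.2 and 391.9 CPM in SD_40d, and 327.2, 359.3 and 255.0 CPM in LD_40d. Both 20-day groups lay below Control in every library, while the 40-day libraries overlapped with Control.

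The summed level of all 192 members was highest in Control and SD_20d leaves and lower in the other 3 groups. For replicates 1, 2 and 3 it was 15144, 17526 and 14904 CPM in Control, 13932, 16870 and 15249 CPM in SD_20d, 12447, 14344 and 12900 CPM in LD_20d, 11799, 12242 and 13329 CPM in SD_40d, and 11973, 13330 and 12539 CPM in LD_40d. The 6 libraries of 40 days all lay below the 3 Control and the 3 SD_20d libraries, whereas LD_20d overlapped with SD_20d and with both 40-day groups. Member by member, the highest of the 5 group means fell in Control for 84 of the 166 tested members, in SD_20d for 70, in LD_20d for 0, in SD_40d for 7 and in LD_40d for 5. These are 50.6, 42.2, 0, 4.22 and 3.01% of the members, against 26.8, 27.9, 7.51, 22.7 and 15.1% of all tested genes. The lowest group mean fell in Control for 6 members, in SD_20d for 12, in LD_20d for 21, in SD_40d for 84 and in LD_40d for 43, or 3.61, 7.23, 12.7, 50.6 and 25.9%, against 26.0, 25.0, 9.20, 25.6 and 14.2% of all tested genes. The order of Control and SD_20d rests on the TMM factors. As a share of the library total, the members took between 1.41 and 1.62% in Control, 1.49 and 1.84% in SD_20d, 1.30 and 1.55% in LD_20d, 1.14 and 1.23% in SD_40d, and 1.13 and 1.31% in LD_40d, so the 40-day libraries lay below Control and SD_20d with this scaling too. In bulk leaf RNA, fewer cells of a type and less RNA per cell cannot be told apart.

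**Figure D1:**
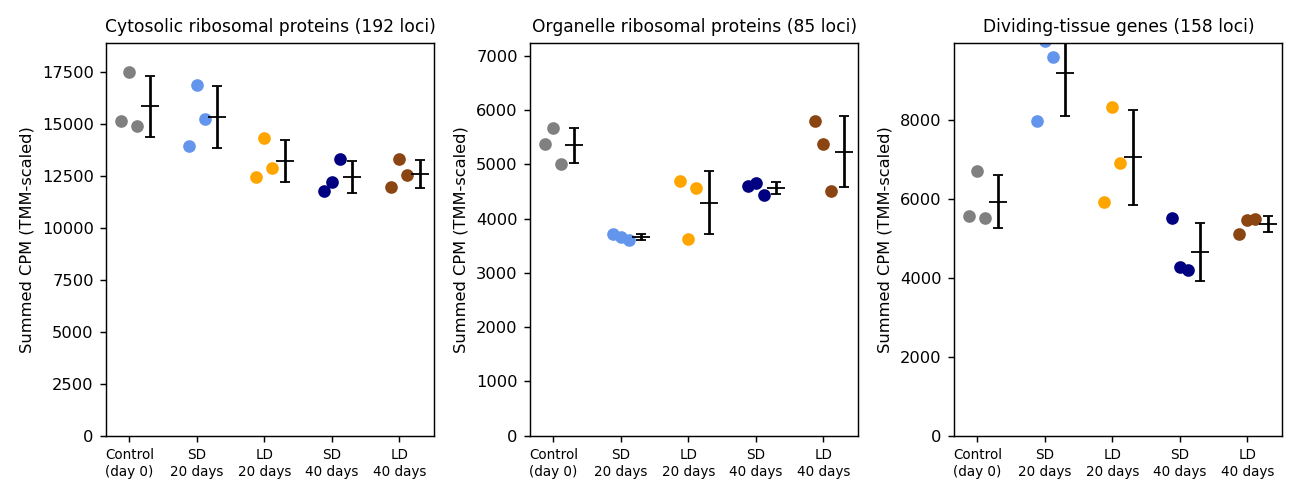
Summed CPM (TMM-scaled, linear axes from 0) of 192 cytosolic ribosomal protein loci, 85 organelle ribosomal protein loci and 158 dividing-tissue genes in each of 15 libraries. Points are libraries and the bars give the group mean and SD (n = 3); the cytosolic sum is 15858 ± 1449 CPM in Control, 15350 ± 1472 in SD_20d, 13230 ± 991 in LD_20d, 12457 ± 787 in SD_40d and 12614 ± 682 in LD_40d.

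A group of dividing-tissue genes (cyclins, histones, kinesins, replication factors) moved beside the members and is given for that reason. Of 158 such genes, 4 had no count in any library. Their summed level lay between 5505 and 6690 CPM in Control, 7956 and 9993 CPM in SD_20d, 5914 and 8319 CPM in LD_20d, 4199 and 5503 CPM in SD_40d, and 5112 and 5475 CPM in LD_40d. The SD_20d libraries were high and the SD_40d libraries low on this list, as on the members, while Control was high for the members and not for this list. The part of dividing tissue in the results below was not tested.

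The photoperiod was compared at equal age and temperature. At 20 days no single ribosomal protein passed the test between SD_20d and LD_20d, but most leaned upward under SD. Among the 166 tested members, 0 were called at an adjusted p under 0.05 with edgeR, where 0.862% of all genes were (0.168% higher and 0.695% lower). At an unadjusted p under 0.05, 41 members passed (39 higher and 2 lower under SD), which is 24.7% against 17.1% of all genes. Among the members limma-voom called 0 and DESeq2 called 6, all higher. Over all genes they called 161 and 829. The fold change was positive for 149 of 166 members, with a median of 0.20 on the log2 scale, beside 0.02 for all tested genes. The members were measured in the same libraries, so their signs are not independent, and by library the groups overlapped. The median log2 deviation of the members from their mean over all libraries was 0.03 in SD_20d replicate 1 and 0.09 in LD_20d replicate 2. In 35 members every SD_20d library lay above every LD_20d library (21.1%, against 14.1% of all genes), and in 3 every one lay below (1.81%, against 13.2%). Leaving out LD_20d replicate 2 gave 8 calls among the members and 885 over all genes, against 144 with every library. Leaving out SD_20d replicate 1 gave 1 and 113.

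The smallest p-values at 20 days belonged to large-subunit proteins. L17 locus LOC110024815, at the exit tunnel, had 122.7, 152.3 and 121.5 CPM in SD_20d and 91.7, 104.2 and 89.9 CPM in LD_20d (log2 fold change 0.47 ± 0.11 SE, adjusted p = 0.0671). The groups did not overlap for this locus. L13 locus LOC110031084 averaged 148 ± 9.9 CPM in SD_20d and 110 ± 17 CPM in LD_20d (0.44 ± 0.11, adjusted p = 0.0856), and L19 locus LOC110030957 averaged 253 ± 22 CPM in SD_20d and 193 ± 13 CPM in LD_20d (0.39 ± 0.10, adjusted p = 0.0884). The stalk protein P0 at LOC110035360 differed by 0.47 ± 0.13 (adjusted p = 0.106), with overlapping groups. The mitochondrial L6 locus LOC110022234 differed the other way, by -0.38 ± 0.11 (adjusted p = 0.115). The dividing-tissue list had a median of 0.47 in the same comparison, and the organelle ribosomal proteins one of -0.10.

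At 40 days, of the 166 members, 0 were called by edgeR between SD_40d and LD_40d, 0 by limma-voom and 0 by DESeq2, where edgeR called 0.461% of all genes (0.162% higher and 0.299% lower). At an unadjusted p under 0.05, 14 members passed, 3 higher and 11 lower, which is 8.43% against 15.5% of all genes, and the median log2 fold change was -0.05, with -0.02 for all tested genes. S15 locus LOC110021725, a protein of the decoding region, had the smallest p, with 46.1, 45.0 and 50.6 CPM in SD_40d and 56.7, 64.5 and 70.7 CPM in LD_40d (-0.44 ± 0.13, adjusted p = 0.148). Its SD_40d libraries all lay below the LD_40d libraries. Next came L37 locus LOC110019681 (-0.79 ± 0.26), L21 locus LOC110023781 (-0.40 ± 0.14), L34 locus LOC110019485 (-0.36 ± 0.13) and L31 locus LOC110033270 (-0.36 ± 0.13), with adjusted p between 0.182 and 0.221. Without SD_40d replicate 1, 6 members were called, 3 higher and 3 lower, and the median was -0.01. That fit called 2037 genes in all, against 77 with every library.

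The difference between the 40-day and the 20-day photoperiod effect was tested as an interaction. Its log2 value was negative for 142 of 166 members, with a median of -0.23, beside -0.03 for all tested genes. No member and no gene of the 16700 (0%) was called with edgeR, while 29 members and 1832 genes (11%) had an unadjusted p under 0.05. DESeq2 called 32 genes and limma-voom 0, with 0 members among them. The smallest p belonged to L31 locus LOC110033270 (-0.76 ± 0.19, adjusted p = 0.385). Leaving out SD_40d replicate 1 gave 1108 calls over all genes, 1 of them a member. With all 15 libraries, a difference between the 2 ages in the photoperiod effect was thus not detected for any single member.

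**Figure D2:**
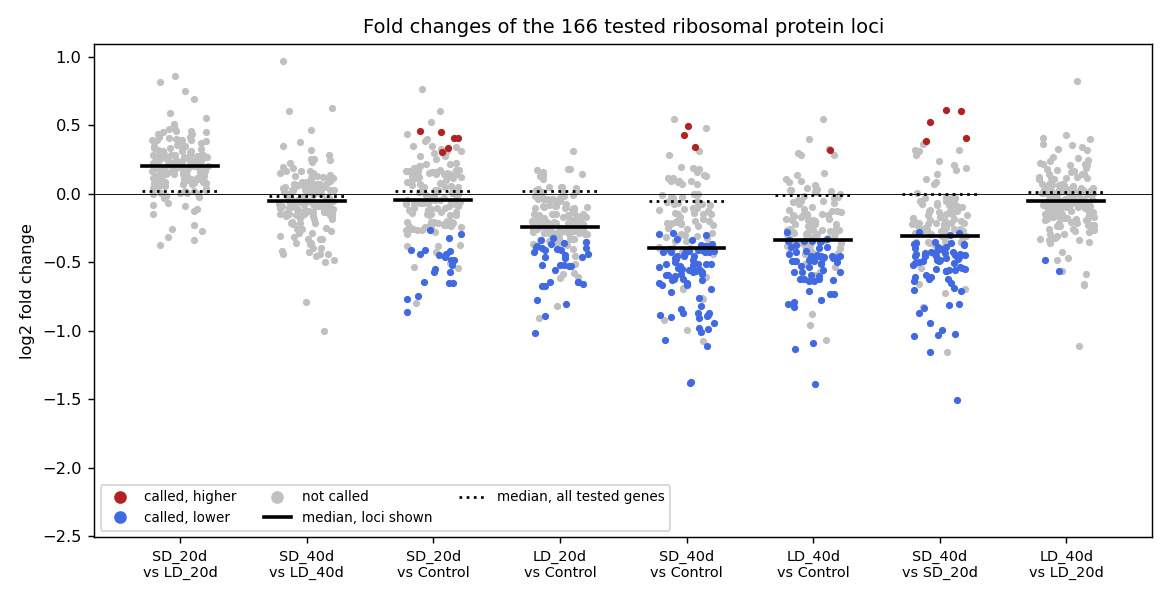
Log2 fold change of each of the 166 tested ribosomal protein loci in 8 comparisons, first-named group over second; red and blue points are called higher or lower at an adjusted p under 0.05 (edgeR) and grey points are not called. The solid bar is the median of the loci shown and the dotted bar that of all 16700 tested genes; the largest gap below the dotted bar is in SD_40d against Control, with medians of -0.39 and -0.05.

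Set against day 0, the longest treatments showed the most falls. In SD_40d leaves, 76 members fell and 3 rose, which is 45.8 and 1.81% of those tested, against 19.5 and 18.8% of all genes (38.3% in both directions). The median log2 fold change of the members was -0.39, beside -0.05 for all tested genes, and in 100 members every SD_40d library lay below every Control library (60.2%, against 24.6% of all genes). The falls covered 42 of 89 large-subunit loci, 30 of 60 small-subunit loci, 1 of 9 stalk loci and 3 of 4 ubiquitin fusions. Without SD_40d replicate 1 the counts were 77 lower and 3 higher, with a median of -0.40. Over all genes the calls then numbered 7810, against 6399 with every library. The call was kept in every fit that left out 1 library for 52 of the 79 members.

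The named falls in SD_40d were in 3 small-subunit and 3 large-subunit loci. S9 locus LOC110030185 (scaffold NW_018165110.1, 134978 to 139216), a small-subunit protein near the messenger RNA entry, had 138.5, 139.7 and 127.0 CPM in SD_40d and 234.0, 279.5 and 240.8 CPM in Control (-0.90 ± 0.12, adjusted p = 1.1e-04). S15 locus LOC110021725 (scaffold NW_018164582.1, 1147090 to 1152997) had 46.1, 45.0 and 50.6 CPM in SD_40d and 87.7, 111.0 and 86.9 CPM in Control (-1.01 ± 0.13, adjusted p = 1.3e-04). L34 locus LOC110019485 had 56.7, 45.3 and 41.1 CPM in SD_40d and 94.9, 93.7 and 93.3 CPM in Control (-0.98 ± 0.13, adjusted p = 1.5e-04). For these loci the groups did not overlap, and the SD_40d level was between 0.50 and 0.54 of the Control level. The other S9 locus, LOC110028981, fell by 0.59 ± 0.08, L27 locus LOC110020952 by 1.11 ± 0.17 and L35 locus LOC110028091, at the tunnel rim, by 0.88 ± 0.14 on the log2 scale, with adjusted p between 1.6e-04 and 4.1e-04. Each of these 6 calls was kept whichever library was left out.

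The 3 members that rose in SD_40d leaves over Control were an L18a-like locus, LOC110021196 (0.43 ± 0.11, adjusted p = 0.00641), L19 locus LOC110028351 (0.34 ± 0.10, adjusted p = 0.0152) and S27 locus LOC110029291 (0.50 ± 0.16, adjusted p = 0.0252). The S27 locus had 117.4, 193.5 and 186.9 CPM in SD_40d and 126.6, 108.0 and 118.5 CPM in Control, so that SD_40d replicate 1 lay within the Control values. The L18a-like call held in every fit without 1 library. The L19 call was lost without SD_40d replicate 2, SD_40d replicate 3 or Control replicate 2, with an adjusted p of up to 0.0701, and the S27 call was lost without any of these or Control replicate 3, with one of up to 0.119.

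LD_40d leaves showed 58 falls and 1 rise against Control, or 34.9 and 0.602% of members against 13.6 and 13.9% of all genes (27.5% in both directions). The median log2 fold change was -0.34, beside -0.01 for all tested genes. The falls took in 26 of 89 large-subunit loci, 27 of 60 small-subunit loci, 1 of 9 stalk loci and 4 of 4 ubiquitin fusions. The steepest named fall was L27 locus LOC110020952 (scaffold NW_018164556.1, 177218 to 177850), with 23.7, 31.9 and 29.9 CPM in LD_40d and 54.7, 72.6 and 60.5 CPM in Control (-1.14 ± 0.17, adjusted p = 4.2e-04). Its groups were far apart. The S9 loci LOC110028981 and LOC110030185 fell by 0.62 ± 0.08 and 0.78 ± 0.11, L21 locus LOC110021126 by 0.83 ± 0.14, L17 locus LOC110031170 by 0.63 ± 0.12 and L35 locus LOC110028091 by 0.73 ± 0.14, with adjusted p between 1.4e-04 and 0.0019. The 1 rise was the mitochondrial L6 locus LOC110022234 (0.32 ± 0.11, adjusted p = 0.0456), and it was lost without any 1 of the 6 libraries compared. In all, 27 of the 59 calls held in every such fit; their number was 29 without LD_40d replicate 1 and 35 without Control replicate 2. It was 38 when the fit used the 2 groups compared alone.

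After 20 days of LD, 34 members fell and 0 rose against Control, 20.5% of members against 12.6% of all genes for falls and 0% against 11.4% for rises (24% of all genes in both directions). The median log2 fold change was -0.24, beside 0.02 for all tested genes, and 54 members, all lower, had an unadjusted p under 0.05, as had 36.1% of all genes. Neither limma-voom nor DESeq2 called a rise, with 35 and 38 falls. S9 locus LOC110028981 (scaffold NW_018164980.1, 450494 to 466383) had 122.5, 116.1 and 119.8 CPM in LD_20d and 188.2, 201.1 and 177.6 CPM in Control (-0.66 ± 0.08, adjusted p = 1.1e-04). S3 locus LOC110023171 (scaffold NW_018164663.1, 65539 to 72898), which lines the messenger RNA entry, had 91.9, 80.6 and 77.0 CPM in LD_20d and 127.3, 137.5 and 134.0 CPM in Control (-0.68 ± 0.10, adjusted p = 3.8e-04). Within each locus the libraries of a group lay close together and the groups far apart. S9 locus LOC110030185 fell by 0.78 ± 0.11, L21 locus LOC110021126 by 0.89 ± 0.14, L10 locus LOC110019371, a protein that joins the large subunit late, by 0.65 ± 0.11 and L35 locus LOC110028091 by 0.67 ± 0.14, with adjusted p between 4.1e-04 and 0.00356. These 6 calls held in every fit without 1 library, as did 13 of the 34 in all; the number called was 16 without LD_20d replicate 1, 18 without LD_20d replicate 3 and 21 without Control replicate 2.

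After 20 days of SD the members moved both ways against Control, 6 up and 22 down, or 3.61 and 13.3% of members against 17.2 and 17.9% of all genes (35.1% in both directions). The median log2 fold change was -0.05, beside 0.02 for all tested genes. L19 locus LOC110028351 (scaffold NW_018164951.1, 27907 to 46030) had 189.1, 203.1 and 195.8 CPM in SD_20d and 155.8, 133.3 and 155.4 CPM in Control (0.40 ± 0.10, adjusted p = 0.00641). L31 locus LOC110030320, at the tunnel exit, had 124.2, 138.1 and 128.5 CPM in SD_20d and 95.5, 105.5 and 93.5 CPM in Control (0.41 ± 0.10, adjusted p = 0.00659). Both calls held in every fit without 1 library. The other rises, in L9 locus LOC110039477 (0.31 ± 0.09), L24 locus LOC110038993 (0.33 ± 0.10), P0 locus LOC110022509 (0.46 ± 0.15) and S26 locus LOC110039128 (0.45 ± 0.15), had adjusted p between 0.0151 and 0.0283 and were each lost in at least 1 such fit, L9 without SD_20d replicate 2 or Control replicate 1.

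The falls named in SD_20d leaves included small- and large-subunit proteins. S3 locus LOC110023171 had 76.1, 78.1 and 83.2 CPM in SD_20d and 127.3, 137.5 and 134.0 CPM in Control (-0.75 ± 0.10, adjusted p = 1.4e-04). L8 locus LOC110018496, a protein next to the peptide-joining centre, had 34.6, 42.7 and 40.9 CPM in SD_20d and 60.7, 79.4 and 61.4 CPM in Control (-0.77 ± 0.15, adjusted p = 0.00151). In both loci every SD_20d library lay below every Control library. The S9 loci LOC110028981 and LOC110030185 fell by 0.57 ± 0.08 and 0.65 ± 0.11, S5 locus LOC110020898 by 0.64 ± 0.12 and L10 locus LOC110019371 by 0.48 ± 0.11, with adjusted p between 2.1e-04 and 0.00452, and all 6 falls held in every fit without 1 library. The calls numbered 16 without SD_20d replicate 3, 18 without Control replicate 1 and 18 without Control replicate 2.

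The direction of this comparison depends on the scaling. Without TMM factors, with library totals alone (an alternative added after the data were seen), 26 members rose and 8 fell in SD_20d against Control, and the median of the members was 0.16. That scaling also moved the median of all genes, to 0.22, so that relative to all genes the members stood at -0.07 with either scaling. The same alternative gave 2 rises and 11 falls for LD_20d against Control, with the median of all genes at 0.18 and the members at -0.26 relative to it, where TMM gives -0.27. The 4 comparisons with Control share its libraries, so their values are not independent of each other.

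**Figure D3:**
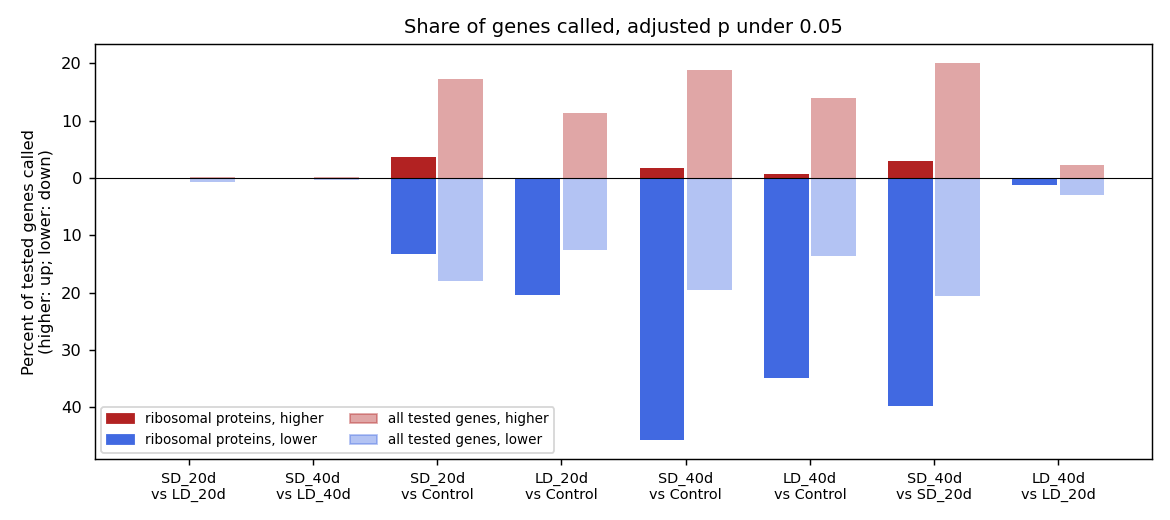
Percent of genes called higher (red, upward) or lower (blue, downward) at an adjusted p under 0.05 in 8 comparisons, for the 166 tested ribosomal protein loci (full colour) and all 16700 tested genes (pale). In SD_40d against Control 45.8% of the loci and 19.5% of all genes are lower, whereas the bars upward are shorter for the loci than for all genes in each comparison with Control.

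Between 20 and 40 days under SD, 66 of 166 members fell, 5 rose and 95 did not pass the test. Lower and higher calls in SD_40d against SD_20d leaves made up 39.8 and 3.01% of members, against 20.7 and 20.1% of all genes (40.7% in both directions). The median was -0.31, beside -0.0049 for all tested genes. The falls covered 42 of 89 large-subunit loci, 15 of 60 small-subunit loci, 6 of 9 stalk loci and 3 of 4 ubiquitin fusions. S8 locus LOC110018501 (scaffold NW_018164464.1, 106323 to 114771) had 25.7, 20.7 and 23.3 CPM in SD_40d and 38.4, 63.3 and 53.8 CPM in SD_20d (-1.16 ± 0.20, adjusted p = 0.0012). L26 locus LOC110033573 (scaffold NW_018165665.1, 1011894 to 1012611), at the tunnel rim, had 63.9, 55.1 and 54.9 CPM in SD_40d and 98.0, 137.0 and 119.5 CPM in SD_20d (-1.03 ± 0.18, adjusted p = 0.00115). In both loci the SD_40d libraries lay together, well below the more scattered SD_20d libraries. S10 locus LOC110027946 fell by 0.94 ± 0.16, L31 locus LOC110033270 by 0.81 ± 0.13, L24 locus LOC110038993, which takes part in a bridge between the subunits, by 0.63 ± 0.10 and L32 locus LOC110030874 by 0.51 ± 0.10, with adjusted p between 8.9e-04 and 0.0016. All 6 calls held in every fit without 1 library, as did 34 of the 71 in all.

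The rises under SD between 20 and 40 days included members outside the cytosolic core. The mitochondrial L6 locus LOC110022234 had 32.0, 38.7 and 38.1 CPM in SD_40d and 25.3, 24.7 and 21.5 CPM in SD_20d (0.60 ± 0.11, adjusted p = 0.0015). The L18a-like locus LOC110021196 rose by 0.52 ± 0.11 (adjusted p = 0.00233) and S30 locus LOC110024454 by 0.61 ± 0.15 (adjusted p = 0.00613), and these 3 calls held in every fit without 1 library. S18 locus LOC110032380 (0.40 ± 0.13, adjusted p = 0.0218) and L8 locus LOC110018496 (0.39 ± 0.15, adjusted p = 0.0491) had overlapping groups and lost the call in several such fits. Without SD_40d replicate 1, 53 members fell and 10 rose in this comparison, with a median of -0.29. Over all genes, 8174 were called in that fit, against 6801 with every library. The number of members called was 38 without SD_40d replicate 2, 35 without SD_20d replicate 2 and 43 without SD_20d replicate 3. With library totals alone it was 107 (104 lower, 3 higher), and the median of all genes was -0.19. On the dividing-tissue list, 98 of 140 tested genes fell and 1 rose in the same comparison, where 20.7 and 20.1% of all genes did. The 4 vascular genes summed to between 0.811 and 2.56 CPM in SD_40d and between 4.98 and 8.05 CPM in SD_20d. Other lists did not fall in their mean sums. The green-leaf list had 36192 CPM in SD_40d and 27957 CPM in SD_20d, the guard-cell list 127 and 123 CPM, and the meristem list 50.5 and 43.5 CPM. The part of these lists in the members' falls was not tested.

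Under LD the same interval brought few calls. The direct test of the change under SD against that under LD is the interaction given above, which called 0 members with edgeR on all 15 libraries. Of the 166 members, 2 fell and 0 rose in LD_40d against LD_20d, or 1.20 and 0% against 2.99 and 2.17% of all genes (5.16% in both directions). At an unadjusted p under 0.05, 17 members passed (5 higher, 12 lower), where 27.7% of all genes did; limma-voom called 0 rises and DESeq2 called 1. L17 locus LOC110031170 had 28.1, 33.8 and 27.7 CPM in LD_40d and 37.1, 44.2 and 44.1 CPM in LD_20d (-0.49 ± 0.12, adjusted p = 0.0404). P0 locus LOC110022509 (scaffold NW_018164636.1, 9558 to 10487) had 30.8, 33.6 and 34.0 CPM in LD_40d and 41.3, 51.1 and 53.0 CPM in LD_20d (-0.56 ± 0.15, adjusted p = 0.0456). Neither group pair overlapped, but both calls were lost without any 1 of LD_40d replicate 1, LD_20d replicate 2 and LD_20d replicate 3, each of which left 0 calls. L32 locus LOC110030874 (-0.34 ± 0.09), S8 locus LOC110018501 (-0.66 ± 0.20) and the mitochondrial L6 locus LOC110022234 (0.35 ± 0.11) came next, with adjusted p between 0.0545 and 0.0707. The count was 1 without LD_40d replicate 2, 5 without LD_40d replicate 3, 5 with DESeq2, 1 with limma-voom and 0 in a fit to the 2 groups alone. Over all genes the same fits called 325, 2011, 2226, 483 and 146.

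Among the stalk proteins, P0, which anchors the stalk, had 3 tested loci, the P1 and P2 proteins, which bind factors as pairs, had 3 and 2, and the plant protein P3 had 1. P3 locus LOC110036504 had 75.6, 84.3 and 71.0 CPM in Control, 82.3, 101.1 and 76.6 CPM in SD_20d, 76.3, 89.0 and 74.1 CPM in LD_20d, 77.5, 71.4 and 78.5 CPM in SD_40d, and 69.7, 83.2 and 71.1 CPM in LD_40d. It was called in no comparison, and all 5 groups overlapped. P2 locus LOC110033022 had 123.1, 139.4 and 114.1 CPM in Control, 148.2, 165.5 and 142.0 CPM in SD_20d, 110.6, 86.4 and 124.0 CPM in LD_20d, 74.9, 111.0 and 109.9 CPM in SD_40d, and 99.1, 113.5 and 107.5 CPM in LD_40d. Its SD_20d libraries stood above all others, and it fell by 0.62 ± 0.16 in SD_40d against SD_20d (adjusted p = 0.00819). The other tested P2 locus, LOC110031326, fell against Control in SD_40d by 0.51 ± 0.15 (adjusted p = 0.0155) and in LD_40d by 0.46 ± 0.15 (adjusted p = 0.0341), and fell against SD_20d in SD_40d by 0.40 ± 0.15 (adjusted p = 0.0431).

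All 3 P0 loci fell in SD_40d against SD_20d, LOC110035360 by 0.45 ± 0.13, LOC110022509 by 0.47 ± 0.15 and LOC110038220 by 0.54 ± 0.18, with adjusted p between 0.0178 and 0.0323. Their mean levels were 155 ± 10, 42.6 ± 7.9 and 17.6 ± 1.9 CPM in SD_40d and 211 ± 28, 58.8 ± 8.3 and 25.5 ± 5.8 CPM in SD_20d. The P1 loci were low. LOC110036227 averaged between 12.5 and 16.0 CPM in the 5 groups and was called in no comparison, and LOC110036229, on the same scaffold, averaged between 1.34 and 2.51 CPM. LOC110037936 had 1.6, 1.7 and 2.2 CPM in SD_40d and 3.4, 5.1 and 7.4 CPM in SD_20d (-1.51 ± 0.53, adjusted p = 0.0355), and LOC110037938, on the same scaffold, had no count. A P2 locus, LOC110019748, had too few counts to be tested.

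The ubiquitin fusions, in which ubiquitin is made joined to S27a or L40, were lower at 40 days. S27a locus LOC110030329 had 159.3, 182.7 and 156.9 CPM in Control, 133.2, 172.2 and 153.7 CPM in SD_20d, 119.1, 147.4 and 142.4 CPM in LD_20d, 114.9, 107.4 and 116.4 CPM in SD_40d, and 108.5, 126.2 and 145.4 CPM in LD_40d. All 40-day libraries lay below the Control libraries. It fell against Control by 0.56 ± 0.13 in SD_40d (adjusted p = 0.00489) and by 0.39 ± 0.13 in LD_40d (adjusted p = 0.0387). The L40 loci LOC110022456 and LOC110019096 fell by 0.66 ± 0.13 and 0.65 ± 0.12 in SD_40d, and by 0.63 ± 0.13 and 0.50 ± 0.12 in LD_40d, with adjusted p between 0.00121 and 0.00774. The other S27a locus, LOC110030054, fell by 0.47 ± 0.15 in LD_40d (adjusted p = 0.0343) and differed by -0.40 ± 0.15 in SD_40d (adjusted p = 0.0506).

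Of the S6 loci, LOC110028971 fell against Control in all 4 treated groups, by 0.41 ± 0.14 in SD_20d, 0.53 ± 0.14 in LD_20d, 0.63 ± 0.14 in SD_40d and 0.57 ± 0.14 in LD_40d, with adjusted p between 0.0042 and 0.0378. It had 181.7, 192.2 and 149.9 CPM in Control, 128.5, 149.3 and 115.9 CPM in SD_20d, 115.8, 140.2 and 107.3 CPM in LD_20d, 96.0, 113.2 and 129.9 CPM in SD_40d, and 113.3, 120.8 and 118.6 CPM in LD_40d. S6 locus LOC110033562 fell against Control by 0.62 ± 0.12 in SD_40d and 0.46 ± 0.12 in LD_40d (adjusted p = 0.0012 and 0.00998), and it differed by -0.16 ± 0.11 in SD_20d and -0.27 ± 0.12 in LD_20d without a call. The third, LOC110025987, averaged between 26.4 and 31.3 CPM in the 5 groups and was called in none of these comparisons. SA, a small-subunit protein at the messenger RNA exit, had 1 locus that fell against Control in every treated group, LOC110033411, by between 0.46 and 0.76 (adjusted p between 5.7e-04 and 0.0165). The other SA locus, LOC110020522, which had the higher level per kilobase (120 against 56.9 CPM per kb), differed from Control by between -0.06 and -0.22 and was not called.

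**Figure D4:**
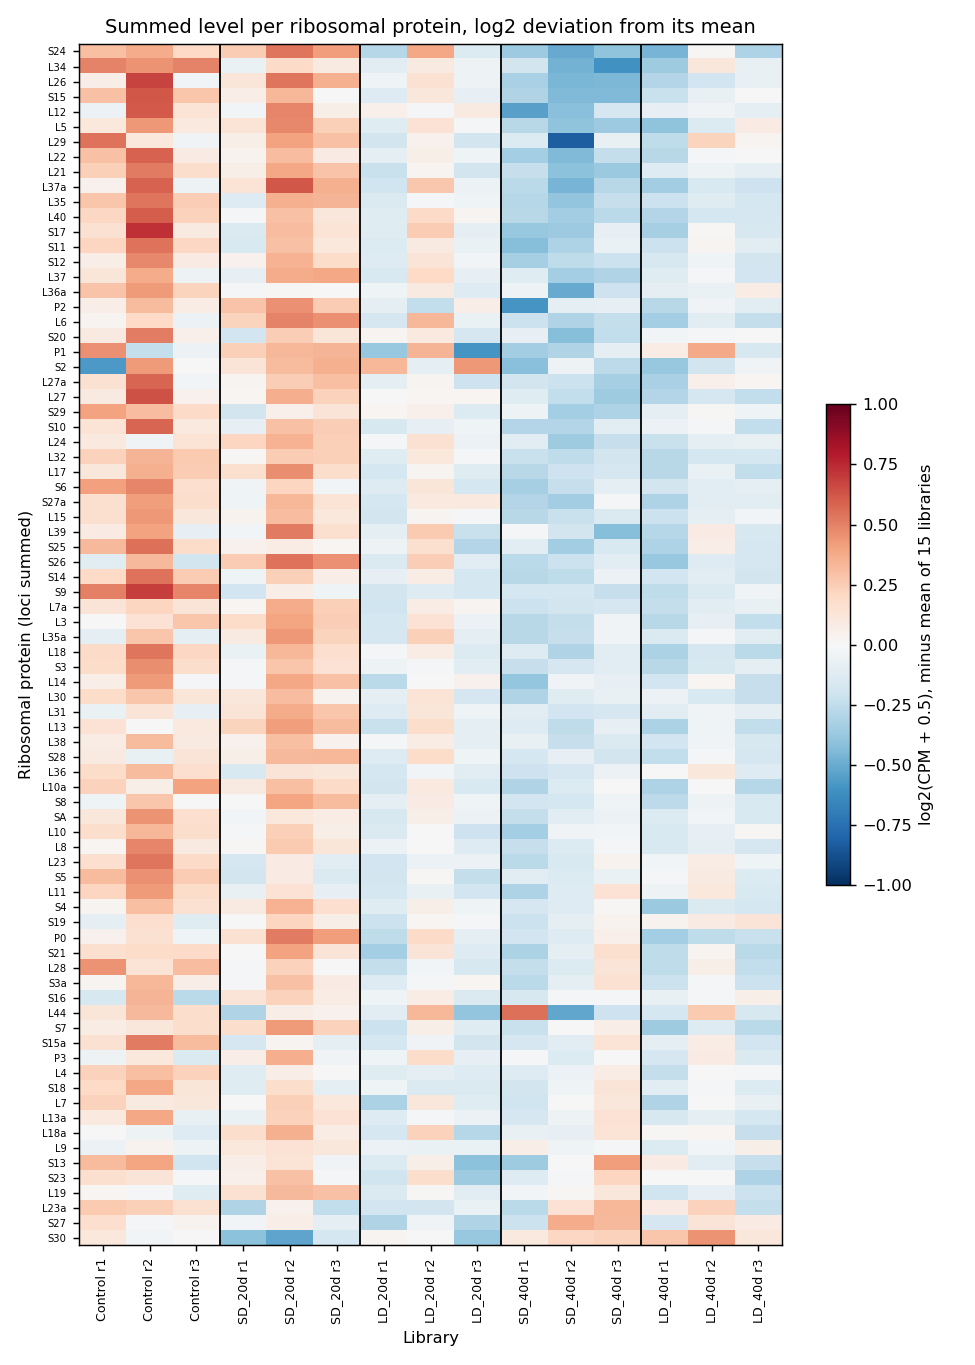
Log2(CPM + 0.5) of the summed loci of each of 80 ribosomal protein families in 15 libraries, minus the family's mean over the libraries; red is above and blue below that mean, and families are sorted by their mean deviation in SD_40d. The group mean is above 0 for 72 families in Control, 67 in SD_20d, 13 in LD_20d, 7 in SD_40d and 5 in LD_40d, while S30, in the bottom row, is red in the SD_40d libraries; no cell deviates by more than 1.

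Loci of one family code for similar proteins and can share reads, so a call on a single locus is uncertain where the counting may have split them. Of the members, 14 lie within 50 kb of a member of the same family. To avoid the split, counts of each family were summed before the fit, an alternative added after the data were seen. Summed, 48 of 80 families fell and 0 rose in SD_40d against Control, 35 fell and 0 rose in LD_40d, 21 fell and 0 rose in LD_20d, and 9 fell and 2 rose in SD_20d. In the fit of single loci, 19.5, 13.6, 12.6 and 17.9% of all genes fell in these comparisons. Those that rose were 18.8, 13.9, 11.4 and 17.2%. S9 had the smallest p in each of these comparisons, with log2 fold changes of -0.62 in SD_20d, -0.73 in LD_20d, -0.76 in SD_40d and -0.71 in LD_40d, and adjusted p between 1.2e-04 and 4.9e-04. The 2 rises in SD_20d were L19 (0.30, adjusted p = 0.026) and L31 (0.27, adjusted p = 0.0457). In SD_40d against SD_20d 40 families fell and 1 rose, S30 (0.56, adjusted p = 0.00825), where 20.7% of all genes fell and 20.1% rose. No family was called by edgeR in SD_20d against LD_20d, SD_40d against LD_40d or LD_40d against LD_20d. There 17, 2 and 2 of the 80 families had an unadjusted p under 0.05, against 17.1, 15.5 and 27.7% of all genes.

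Within families, the share of the leading locus differed between groups most in S10, S27 and L21, families chosen for that range, so their shares are a description with no test. S10 locus LOC110027946 made up 61.9% of the S10 level per kilobase in Control, 68.0% in SD_20d, 58.9% in LD_20d, 45.9% in SD_40d and 48.7% in LD_40d. Its partner LOC110036528 had 65.9, 85.2 and 57.7 CPM in Control, 47.6, 54.9 and 57.6 CPM in SD_20d, 60.2, 49.4 and 63.2 CPM in LD_20d, 57.0, 71.1 and 80.0 CPM in SD_40d, and 84.1, 75.1 and 55.8 CPM in LD_40d. The partner was called in no comparison with Control, while LOC110027946 fell by 0.94 ± 0.16 in SD_40d and 0.73 ± 0.16 in LD_40d (adjusted p = 6.5e-04 and 0.00438). S27 locus LOC110029291 made up 77.0% of its family in SD_40d and 56.5% in Control, and its partner LOC110033456 had 37.9, 39.1 and 38.5 CPM in SD_40d and 75.9, 69.4 and 66.1 CPM in Control (-0.87 ± 0.18, adjusted p = 0.00213). L21 locus LOC110021126 made up between 44.5 and 51.2% in the 4 treated groups and 59.99% in Control, and its partner LOC110023781 averaged 91.8 CPM in LD_20d and 90.8 CPM in Control.

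**Figure D5:**
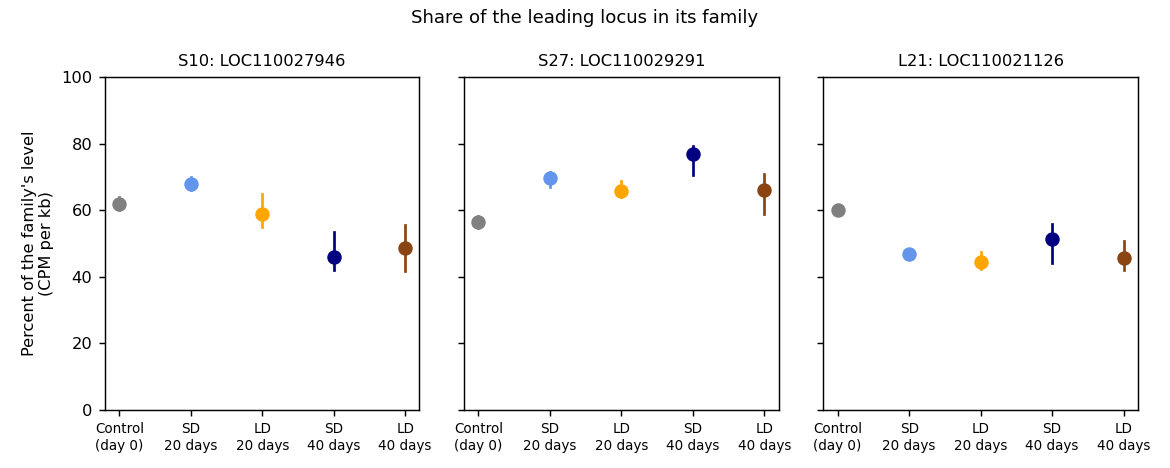
Percent of the family's level (CPM per kb) held by the leading locus in S10, S27 and L21; points are shares of the group means and lines span the lowest and highest library (n = 3 per group). The S10 share is 45.9% in SD_40d and 61.9% in Control, the S27 share 77.0 and 56.5%, and the L21 share 51.2 and 59.99%.

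Families with loci called in opposite directions in the same comparison were 2 in number. They were S27 in SD_40d against Control, above, and L8 in SD_40d against SD_20d, where LOC110022675 had 253.5, 263.1 and 285.2 CPM in SD_40d and 315.8, 375.6 and 338.1 CPM in SD_20d (-0.36 ± 0.12, adjusted p = 0.033) while LOC110018496 rose as given above. The rise of each pair lost its call in several fits that left out 1 library. Whether the fall of each pair kept its call is not given here. In 6 of the 60 families with several tested loci, 1 locus held more than 90% of the level.

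Ribosomal proteins of the chloroplast and mitochondrion, found by the words 50S, 30S, 39S and 28S, were counted beside the cytosolic set. Of 82 tested, 24 rose and 8 fell in SD_40d against SD_20d, or 29.3 and 9.76%, against 20.1 and 20.7% of all genes. Against Control, 3 rose and 37 fell in SD_20d (3.66 and 45.1%, against 17.2 and 17.9% of all genes), and 2 rose and 22 fell in LD_20d (2.44 and 26.8%, against 11.4 and 12.6%). At 40 days 1 rose and 22 fell in SD_40d (1.22 and 26.8%, against 18.8 and 19.5%), and 3 rose and 6 fell in LD_40d (3.66 and 7.32%, against 13.9 and 13.6%). Their summed level was between 5013 and 5666 CPM in Control, 3603 and 3719 CPM in SD_20d, 3622 and 4692 CPM in LD_20d, 4438 and 4657 CPM in SD_40d, and 4512 and 5792 CPM in LD_40d. These counts were not tested against those of the cytosolic members.

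Genes that serve ribosome production and use were counted from lists found by words. Of 53 tested ribosome biogenesis genes, 3 rose and 16 fell in SD_40d against SD_20d (5.66 and 30.2%, against 20.1 and 20.7% of all genes), with a median of -0.17. Against Control, 9 rose and 4 fell in SD_20d (17.0 and 7.55%, against 17.2 and 17.9% of all genes), 4 rose and 4 fell in LD_20d (7.55% each, against 11.4 and 12.6%), 8 rose and 9 fell in SD_40d (15.1 and 17.0%, against 18.8 and 19.5%), and 3 rose and 7 fell in LD_40d (5.66 and 13.2%, against 13.9 and 13.6%). RNA polymerases I and III transcribe ribosomal RNA, and the words for them also admit subunits shared with polymerase II and the factor RRN3. Of 17 genes so found, 8 rose and 1 fell in SD_20d against Control (47.1 and 5.88%), and 4 rose and 1 fell in LD_20d (23.5 and 5.88%). At 40 days 4 rose and 2 fell in SD_40d (23.5 and 11.8%), and 3 rose and 2 fell in LD_40d (17.6 and 11.8%). These are to be read against the same shares of all genes. Of 61 translation factors, 12 rose and 6 fell in SD_40d against SD_20d (19.7 and 9.84%), and 11 rose and 13 fell in SD_40d against Control (18.0 and 21.3%, against 18.8 and 19.5% of all genes). Of 4 tested genes of the TOR pathway, at most 1 was called in any comparison, and each such call was a rise. None of these lists had a call between SD_20d and LD_20d or between SD_40d and LD_40d with edgeR. At an unadjusted p under 0.05, 17.1% of all genes passed at 20 days and 15.5% at 40 days. Of the 53 biogenesis genes 8 and 2 passed, and of the 61 translation factors 5 and 6. Of the 17 polymerase genes 2 and 1 passed, of the 4 TOR genes 1 and 1, and of the organelle ribosomal proteins 23 and 18.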

How the data were processed

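RNA of 15 leaf libraries was extracted with Trizol and made into libraries with the NEBNext Ultra II kit, per the labels' protocols. The authors deposited 1 table with read counts per gene, FPKM, gene length and start and end positions (other columns). The counts are whole numbers with no normalization, per the file headers. The FPKM deposited by the authors matched count, length and library total within 0.5 reads for 192 of 192 members and served that check alone. The submitters' processing notes list HTSeq 0.9.1, HISAT2 2.0.5, DESeq 1.30.0 and cutadapt 1.15; what each did, the genome build, the annotation and the strand setting are not given in the sources used here, so reads of overlapping antisense genes cannot be told apart.

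The quasi-likelihood F test of edgeR 4.0.16 (R 4.3.3, TMM factors, filterByExpr) was applied to the counts, with 1 model of 5 group means for the 15 libraries. Benjamini-Hochberg adjustment ran over 16700 genes, and genes with an adjusted p under 0.05 were called. Values after ± are standard errors of log2 fold changes (the fold change over the root of F) or SDs of CPM (n = 3). CPM are scaled by TMM. The design text calls the libraries biological replicates. Alternatives were DESeq2 1.42.0, limma-voom (limma 3.58.1), RLE factors, TMM factors without the members, no filter, only the groups compared, a replicate block, each library left out, and, added later, library totals alone and summed families. The code was tested on simulated data.

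Named in each comparison were up to 6 called rises and 6 called falls with the smallest adjusted p, or the 5 smallest p-values when fewer than 5 were called. To these came the 6 highest members per kilobase, all stalk, S6, SA and ubiquitin fusion loci, and the 3 families with the widest range of locus share; the family partners, the interaction's smallest p and the families called were named after their values were seen. Members and lists were chosen with earlier results of these data known. Lists were made by words in the protein names: organelle ribosomal proteins, ribosome biogenesis, RNA polymerases I and III, translation factors, the TOR pathway, and markers of dividing tissue, green leaf, guard cells, vascular tissue and meristem.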

Additional observations from a re-analysis of the deposited data

How the results depend on the processing

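No called value of a named member changed direction under any alternative that fitted the loci singly. With families summed, some did. In SD_40d against SD_20d the called rises of L8 locus LOC110018496 and S18 locus LOC110032380 became -0.27 and -0.02 for their families, without a call. Over all named values and alternatives, 7638 kept their side of the threshold, 290 lost a call and 109 gained one, whatever their direction. With DESeq2 the members called numbered 6 for SD_20d against LD_20d and 5 for LD_40d against LD_20d, and with limma-voom 1 for the second of these. Only the groups compared in the fit gave 38 calls for LD_40d against Control, 48 for SD_40d against Control and 0 for LD_40d against LD_20d. Library totals alone gave 13 for LD_20d against Control, 37 for LD_40d against Control and 107 for SD_40d against SD_20d. RLE factors, TMM factors without the members and no filter on low counts kept every count of called members within 1.5 times. Leaving out each library in turn gave between 0 and 8 calls for SD_20d against LD_20d, 0 and 6 for SD_40d against LD_40d, 16 and 34 for LD_20d against Control, 16 and 22 for SD_20d against Control, 29 and 53 for LD_40d against Control, 56 and 80 for SD_40d against Control, 0 and 5 for LD_40d against LD_20d, 35 and 75 for SD_40d against SD_20d, and 0 and 1 for the interaction. Over all genes these fits gave between 5 and 885 calls for SD_20d against LD_20d. They gave between 0 and 2037 for SD_40d against LD_40d, and between 0 and 1108 for the interaction. Fewer samples are in each such fit, and otherwise the cause was not tested. The replicate block gave 1 call for SD_20d against LD_20d and moved no other count by over 1.5 times; the deviations of same-numbered libraries correlated between -0.286 and 0.364, with no comparison in which every pair passed 0.1, so the numbers were not taken as pairs. The median of the members stayed between -0.42 and -0.32 for SD_40d against Control and between -0.49 and -0.24 for SD_40d against SD_20d, and between -0.11 and 0.16 for SD_20d against Control. Depth limits loci with few counts, such as the lowest tested member with 114 over all libraries.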

Other observations

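Marker lists of other leaf cells were summed in each library. The guard-cell list was found by the words SPEECHLESS, MUTE, FAMA, EPIDERMAL PATTERNING FACTOR and SLAC1. These words also admit genes of stomatal development, so the sum is not a level of guard cells alone. For its 15 genes, the summed level lay between 132 and 166 CPM in Control, 96.4 and 139 CPM in SD_20d, 118 and 148 CPM in LD_20d, 122 and 133 CPM in SD_40d, and 139 and 324 CPM in LD_40d. Of 13 tested, 8 fell in SD_40d against SD_20d, where 20.7% of all genes fell. The summed level of the 15 genes did not fall, with means of 127 CPM in SD_40d and 123 CPM in SD_20d. The 4 vascular genes summed to between 1.06 and 2.39 CPM in Control, 4.98 and 8.05 CPM in SD_20d, 3.96 and 6.08 CPM in LD_20d, 0.811 and 2.56 CPM in SD_40d, and 0.344 and 2.86 CPM in LD_40d, so both 20-day groups lay above the other 3. The 14 meristem genes summed to at most 74 CPM in any library, with 3 at 0 everywhere.

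The 3 tested L18a-like loci had positive fold changes in SD_40d against SD_20d and in LD_40d against LD_20d, where the cytosolic core had medians of -0.32 and -0.06. LOC110021196, the locus called in SD_40d, had 30.8, 35.7 and 37.4 CPM in SD_40d and 26.8, 22.4 and 23.3 CPM in SD_20d. LOC110030625 had 18.0, 21.5 and 20.2 CPM in SD_40d and 17.2, 15.3 and 14.0 CPM in SD_20d (0.36 ± 0.15, adjusted p = 0.0644), and LOC110031432 had 9.7, 13.1 and 12.9 CPM in SD_40d and 12.1, 7.7 and 9.0 CPM in SD_20d (0.31 ± 0.21, adjusted p = 0.249). The 2 loci that were not called overlapped or nearly touched between the groups.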
